A study of Mus musculus with 6 samples.

Results

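The genes that encode the protein subunits of the mitochondrial ribosome were examined in memory and naive group 1 innate lymphoid cells (ILC1s) of mouse liver. The members were all rows of the deposited gene table whose symbol is Mrpl or Mrps followed by a number and at most 1 letter, which gave 78 of 23942 genes, 49 named for the large subunit and 29 named for the small subunit. The rule used names only and no measured value, but it was chosen with earlier results of these data known. Bulk RNA sequencing covered 6 libraries of liver lymphocytes, 3 of memory ILC1s (treatment labelled OXA, day 30) and 3 of naive ILC1s (solvent, day 0). The labels do not spell out OXA and give neither the strain, the age of the mice nor the sort. Day and treatment both separate the groups, and their effects cannot be told apart. Nothing in the labels ties a replicate to its own animal, and p-values therefore reflect the spread of these 6 libraries alone, part of which may be technical.

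ILC1s are tissue-resident lymphocytes that resemble natural killer cells and make interferon-gamma. The mitochondrial ribosome, or mitoribosome, makes the few proteins that are encoded by mitochondrial DNA, all of them core parts of the respiratory chain and the ATP synthase. Its rRNAs are transcribed inside the mitochondrion, but every one of its proteins is encoded in the nucleus, translated in the cytosol and imported. Some of these proteins descend from bacterial ribosomal proteins and others exist only in mitochondria. In lymphocytes, mitochondrial translation is known to be needed when cells leave rest and proliferate.

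All 78 members were expressed, and the most visible feature of the family was its wide range of RNA levels. Levels are given as RPKM (reads scaled to exon length and library size), so a comparison between genes depends on the exon length assigned to each. Over the 6 libraries the member means ran from 1.56 RPKM for Mrps17 to 65.95 RPKM for Mrpl18, a 42.3-fold range, with a median of 8.57 RPKM. Among all 13793 genes tested, those 2 members stood at percentile 19.7 and percentile 93.5 of mean level. Part of this range lies in the assigned exon length, 6490 bases for Mrps17 and 1398 bases for Mrpl18. Their reads per library ran from 177 to 250 and from 1498 to 2248. Of the 78 members, 24 averaged under 5 RPKM, 42 between 5 and 20 RPKM and 12 at least 20 RPKM. In the assembled ribosome nearly all of these proteins are present in single copies. The recovered reads behind single values ran from 28 to 2979, with a median of 403.

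In the large subunit, the top of the range was led by Mrpl18, a protein of the central protuberance. It was at 62.9, 67.6 and 54.0 RPKM in memory libraries 1 to 3 and at 72.1, 69.6 and 69.6 RPKM in naive libraries 1 to 3. Mrpl52 and Mrpl42, both found only in mitochondria, came next with means of 40.57 and 36.05 RPKM over the 6 libraries. Mrpl18 was the only member whose lowest library lay above the highest library of the member ranked directly under it. In the other 76 of 77 neighbouring pairs of the whole order, the 6 values of the pair overlapped. At the low end were Mrpl35 with a mean of 2.20 RPKM, Mrpl1, which forms the mobile stalk next to the exit site for tRNA, with 2.76 RPKM, and Mrpl17 with 2.81 RPKM. Mrpl12, the stalk protein that recruits translation factors and is present in several copies per ribosome, was at 15.8, 17.5 and 17.5 RPKM in memory and at 17.6, 16.6 and 15.8 RPKM in naive libraries, well inside the range of its single-copy partners.

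In the small subunit, Mrps21 was highest with 31.4, 32.6 and 32.2 RPKM in memory and 37.3, 34.5 and 31.0 RPKM in naive libraries. Mrps15, which binds the small rRNA, averaged 26.4 RPKM over the 6 libraries and the mitochondria-specific Mrps33 23.9 RPKM. The lowest were Mrps17, with 1.42, 1.57 and 1.53 RPKM in memory and 1.46, 1.55 and 1.82 RPKM in naive libraries, then Mrps18a with a mean of 2.48 RPKM and Mrps35 with 2.56 RPKM. The 3 relatives of bacterial protein S18 differed from each other. Mrps18c averaged 18.2 ± 2.38 RPKM in memory and 21.1 ± 0.315 RPKM in naive libraries (SD, n = 3 each). Mrps18b averaged 2.94 and 2.90 RPKM, and Mrps18a 2.51 and 2.44 RPKM, in memory and naive libraries in that order. The values of Mrps18c did not overlap those of its relatives in any library. Exon lengths were 1076 bases for Mrps18c, 2089 for Mrps18b and 3690 for Mrps18a. Of the exon bases of Mrps18c, 23.2% are shared with Gm43511 on the same strand. For Mrps18b, 30.5% are shared with Gm16279 on the opposite strand, so the levels of both are uncertain.

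A few names do not match the place of the protein. Mrps18a and Mrps30 are named as small subunit proteins but sit in the large subunit of the mammalian mitoribosome, and Mrps36 belongs to the alpha-ketoglutarate dehydrogenase complex. Mrps30 was at 12.5 ± 0.624 RPKM in memory and 12.4 ± 1.92 RPKM in naive libraries, and Mrps36 at 2.60 ± 0.737 and 2.54 ± 0.0915 RPKM in memory and naive libraries (SD, n = 3 each). None of these 3 was called (limma adjusted p 0.946 to 0.991). RPKM also depends on the exon length that the authors assigned to a gene, and across the 78 genes the log2 level and log2 exon length had a Pearson r of -0.51, given as a description since genes are not independent replicates.

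**Figure D1:**
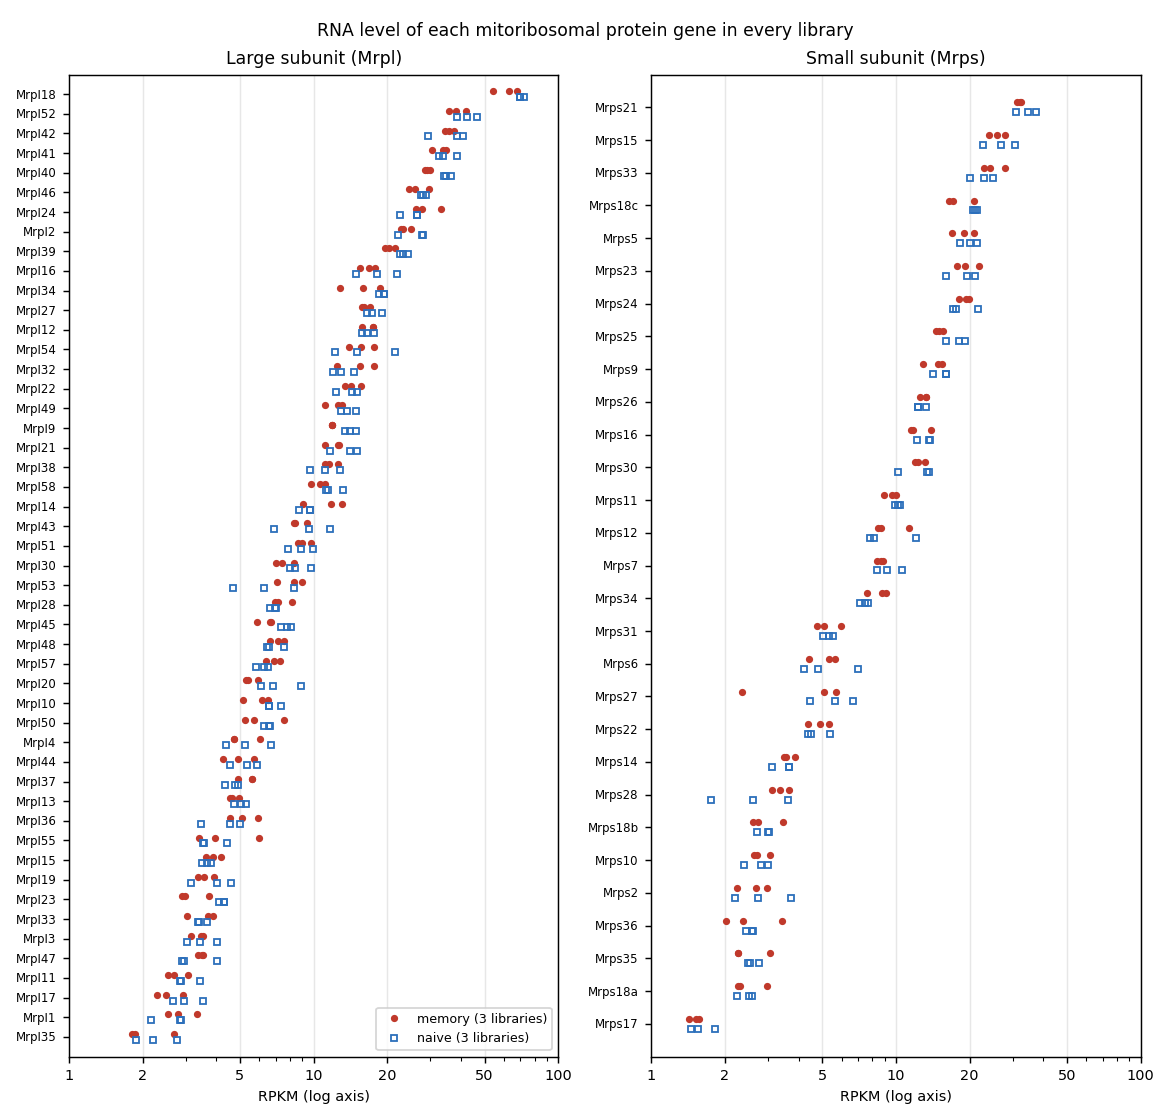
RNA level of every member in each library, large subunit on the left and small subunit on the right, in RPKM on a log axis, ordered by the mean over 6 libraries. Filled red points are the 3 memory libraries and open blue squares the 3 naive libraries. The order runs from 65.95 RPKM for Mrpl18 down to 1.56 RPKM for Mrps17, and the groups overlap for most members.

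Between the groups, the family hardly moved. Of 78 members, all of which passed the filter of a mean of at least 0.5 RPKM, 1 was lower in memory and none was higher (limma, Benjamini-Hochberg adjusted p under 0.05). Over all 13793 genes tested, 4.17% were called, 3.2% higher and 0.972% lower, so the member count is near the share called lower in general. At an unadjusted p under 0.05, 9 members were lower and none was higher, against 6.29% lower and 11.2% higher over all genes tested. With voom on the recovered reads, 3 members were lower (Mrpl40, Mrps25 and Mrpl23) and none higher. Voom called 1141 of all 13793 genes in either direction. Of these, 347 were lower (2.52% of all genes) and the rest, the larger part, higher. Memory and naive mean levels of the 78 genes correlated at r = 0.99 on the log2 scale, again across genes.

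The changes of the members leaned slightly below those of other genes. Each change is the memory mean minus the naive mean of log2(RPKM + 1), a scale on which the change of weakly expressed genes comes out too small. The median change was -0.07 over the 49 large subunit members and -0.01 over the 29 small subunit members, against 0.02 over all genes tested. Of the large subunit members, 31 of 49 had a negative change, and of the small subunit members 15 of 29, where 45.4% of all genes tested were negative. The number of negative members ran from 43 to 56 over the alternative fits. Within the large subunit, the 30 proteins with bacterial relatives had a median of -0.08 and the 19 mitochondria-specific proteins -0.07. In the small subunit the medians were -0.06 for 17 proteins with bacterial relatives and 0.03 for 9 mitochondria-specific proteins. The small subunit median turned to 0.02 without memory replicate 3, so its sign rests on that library.

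The summed RNA of each subunit shows how small this lean was beside the spread of the libraries. The 49 large subunit genes together gave 615, 637 and 605 RPKM in memory libraries and 688, 660 and 615 RPKM in naive libraries, means of 619 ± 16.0 and 654 ± 36.9 in memory and naive (SD, n = 3 each). The 29 small subunit genes gave 308, 322 and 289 RPKM in memory and 328, 314 and 303 RPKM in naive libraries. The groups overlapped for both sums. Naive library 1 was high, holding the highest value of 30 of the 78 members, while naive library 3 held the lowest value of 26 members and memory library 3 of 21. Naive library 1 was also the library with the fewest reads, 18697093, and the part of depth in this was not tested. The ratio of large to small subunit RNA was 2.00, 1.98 and 2.09 in memory and 2.10, 2.10 and 2.03 in naive libraries, again with overlap.

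**Figure D2:**
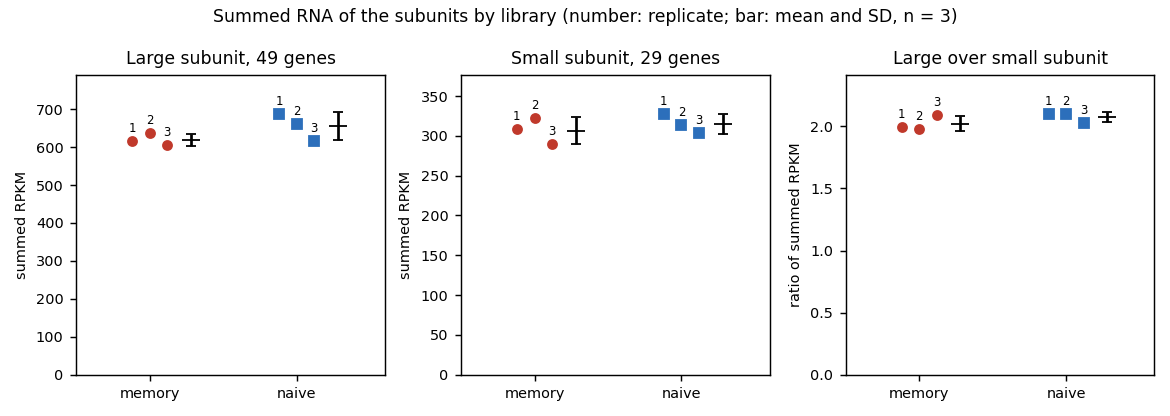
Summed RPKM of the large and small subunit genes and their ratio in each library, with memory left of naive. Points are libraries with their replicate number, and the bar beside them is the mean ± SD (n = 3). The large subunit sums overlap between memory (605 to 637 RPKM) and naive (615 to 688 RPKM).

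The member that was called is Mrpl40 (chromosome 16, 18872018 to 18876767, minus strand, mm10), a mitochondria-specific large subunit protein whose human gene lies in the region lost in DiGeorge syndrome. It was at 28.46, 29.01 and 29.92 RPKM in memory libraries and at 33.97, 36.33 and 34.81 RPKM in naive libraries, and every memory value lay under every naive value. Its RNA fell by 0.26 on the log2 scale (SE 0.04), to 0.836 of the naive level on that scale (limma adjusted p = 0.0229). The size of the change hardly varied, but the call did. Adjusted p was 0.0843, 0.0991 and 0.0591 without memory replicate 1, 2 or 3, 0.0479 without naive replicate 1, and 0.089 and 0.06565 without naive replicate 2 or 3 (limma). Voom on the recovered reads gave an adjusted p of 0.0393. The fit with a replicate block gave 0.0857.

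Another 9 members had every memory value under every naive value without being called, which with Mrpl40 makes 10 of 78. No member had every memory value above every naive value. Over all genes tested, 9.24% had non-overlapping groups with memory lower and 14.9% with memory higher. Mrpl9, a large subunit protein with a bacterial relative, was at 11.9, 11.8 and 11.9 RPKM in memory and 14.9, 13.4 and 14.1 RPKM in naive libraries (log2 change -0.23, SE 0.05, limma adjusted p = 0.0722). Of the alternatives tried, it passed the threshold under quantile normalization (adjusted p = 0.0493) and median ratio scaling (adjusted p = 0.0499). Mrpl39, found only in mitochondria, was at 20.3, 21.5 and 19.5 RPKM in memory and 24.4, 23.25 and 22.6 RPKM in naive libraries (limma adjusted p = 0.126). Mrpl45, which sits at the tunnel exit and ties the ribosome to the inner membrane, was at 5.89, 6.70 and 6.66 RPKM in memory and 7.81, 8.09 and 7.35 RPKM in naive libraries (limma adjusted p = 0.147).

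Mrpl23, a protein at the rim of the exit tunnel, was at 2.89, 3.72 and 2.97 RPKM in memory and 4.29, 4.30 and 4.10 RPKM in naive libraries (log2 change -0.32, SE 0.10, limma adjusted p = 0.14). Its processed copy Mrpl23-ps1 has a row of its own with 8.44, 9.42 and 7.47 RPKM in memory and 10.1, 8.65 and 10.8 RPKM in naive libraries. The copy holds more RPKM than the gene, on an exon length of 580 bases against 4883 bases. In reads per library the copy holds fewer, 86 to 132 against 288 to 432. Reads of the pair may be split, so the level and change of Mrpl23 are uncertain. Mrps25 was the small subunit member in this group, at 14.6, 15.1 and 15.6 RPKM in memory and 18.1, 19.2 and 16.0 RPKM in naive libraries (log2 change -0.22, SE 0.07, limma adjusted p = 0.187). Of its exon bases, 69.8% are shared with Nr2c2 on the opposite strand. The remaining members without overlap were Mrpl20, Mrpl18, Mrpl58 and Mrpl10, with limma adjusted p from 0.244 to 0.396. Mrpl58 frees stalled peptides from the ribosome and Mrpl10 anchors Mrpl12 at the stalk.

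**Figure D3:**
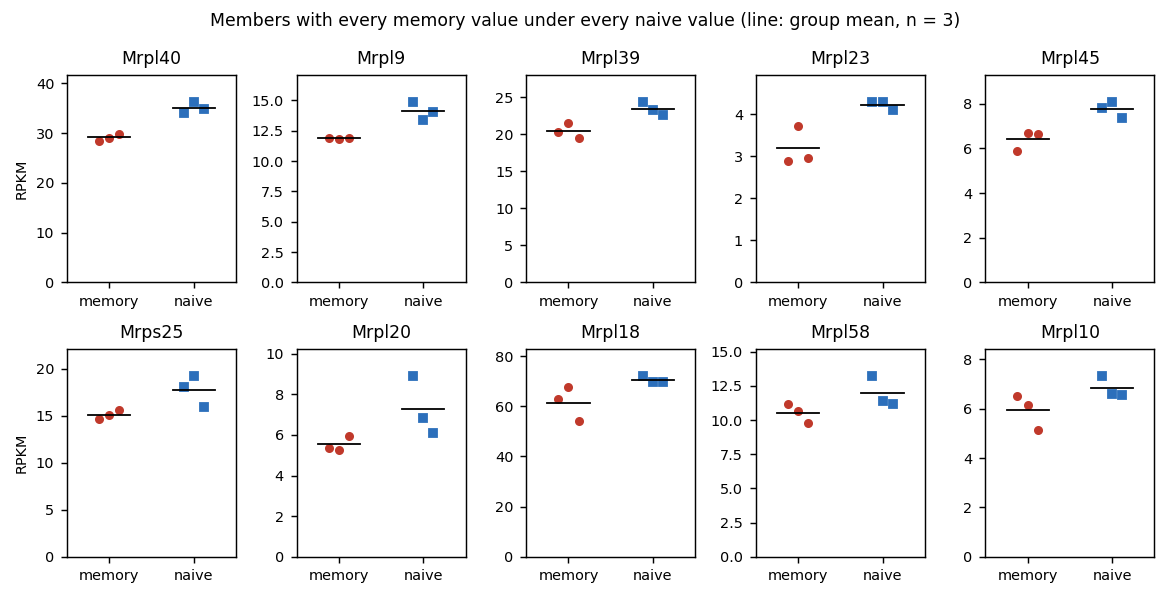
RPKM of the 10 members in which all 3 memory libraries lie under all 3 naive libraries, in order of limma p. Points are libraries with memory left of naive, lines are group means (n = 3), and every axis starts at 0. Mrpl40 at upper left is the only call.

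Several of the largest changes by size were in genes whose libraries disagreed. The most negative in the small subunit was Mrps27, an RNA-binding protein of the pentatricopeptide repeat family, with 5.09, 5.71 and 2.34 RPKM in memory and 6.66, 5.64 and 4.46 RPKM in naive libraries. Memory library 3 stood apart, and the change of -0.34 had a 95% interval from -0.99 to 0.31. Without that library the change was -0.03. The most negative in the large subunit was Mrpl20, whose bacterial relative is needed early in assembly, with 5.38, 5.28 and 5.93 RPKM in memory and 8.90, 6.83 and 6.11 RPKM in naive libraries (log2 change -0.33, SE 0.13). Here the naive libraries were the ones that spread. Mrpl34 followed Mrpl20 and Mrpl23 with a change of -0.27, and Mrps18c followed Mrps27 and Mrps25 with -0.21, neither called.

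On the positive side, Mrpl53 was at 8.997, 7.075 and 8.29 RPKM in memory and 8.327, 6.285 and 4.672 RPKM in naive libraries (log2 change 0.32, 95% interval -0.11 to 0.75). Gm42688 covers 88.0% of its exon bases on the same strand, so its value is uncertain. Mrpl14 had a change of 0.24 and Mrpl36, a small zinc-binding protein, 0.22. In the small subunit Mrps28 was at 3.13, 3.65 and 3.35 RPKM in memory and 2.60, 1.76 and 3.63 RPKM in naive libraries (log2 change 0.29, 95% interval -0.15 to 0.73), on only 28 to 68 reads. Mrps34 had a change of 0.17 and Mrps33 of 0.14. Of the exon bases of Mrps34, 63.4% are shared with Mapk8ip3 on the opposite strand and 37.0% with Nme3 on the same strand, so its value is uncertain. None of these 6 members was called (limma adjusted p 0.326 to 0.549).

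The intervals show how large a change could have gone unseen. The 95% interval of the log2 change lay inside a 2-fold change in either direction for all 78 members, where this held for 92.1% of all genes tested. Mrps27 lay close to that limit and passed it with smaller pseudocounts, with intervals from -1.10 to 0.34 at a pseudocount of 0.5 and from -1.22 to 0.38 at 0.1. Over the alternative fits, at most 1 member passed a 2-fold change, Mrps28 with voom and Mrps27 in the others that had one. The interval lay inside 1.5-fold for 74 members (67 to 73 in the alternative fits), the exceptions being Mrps27, Mrps28, Mrpl20 and Mrpl53, and for 80.3% of all genes tested. The median half-width of the interval on the log2 scale was 0.235 among members and 0.233 among all genes tested. These intervals are not adjusted for the number of genes, and those of 9 members excluded 0 while 1 member was called. Changes larger than the half-width therefore also went without a call, such as those of Mrpl23 (-0.324) and Mrpl20 (-0.33).

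**Figure D4:**
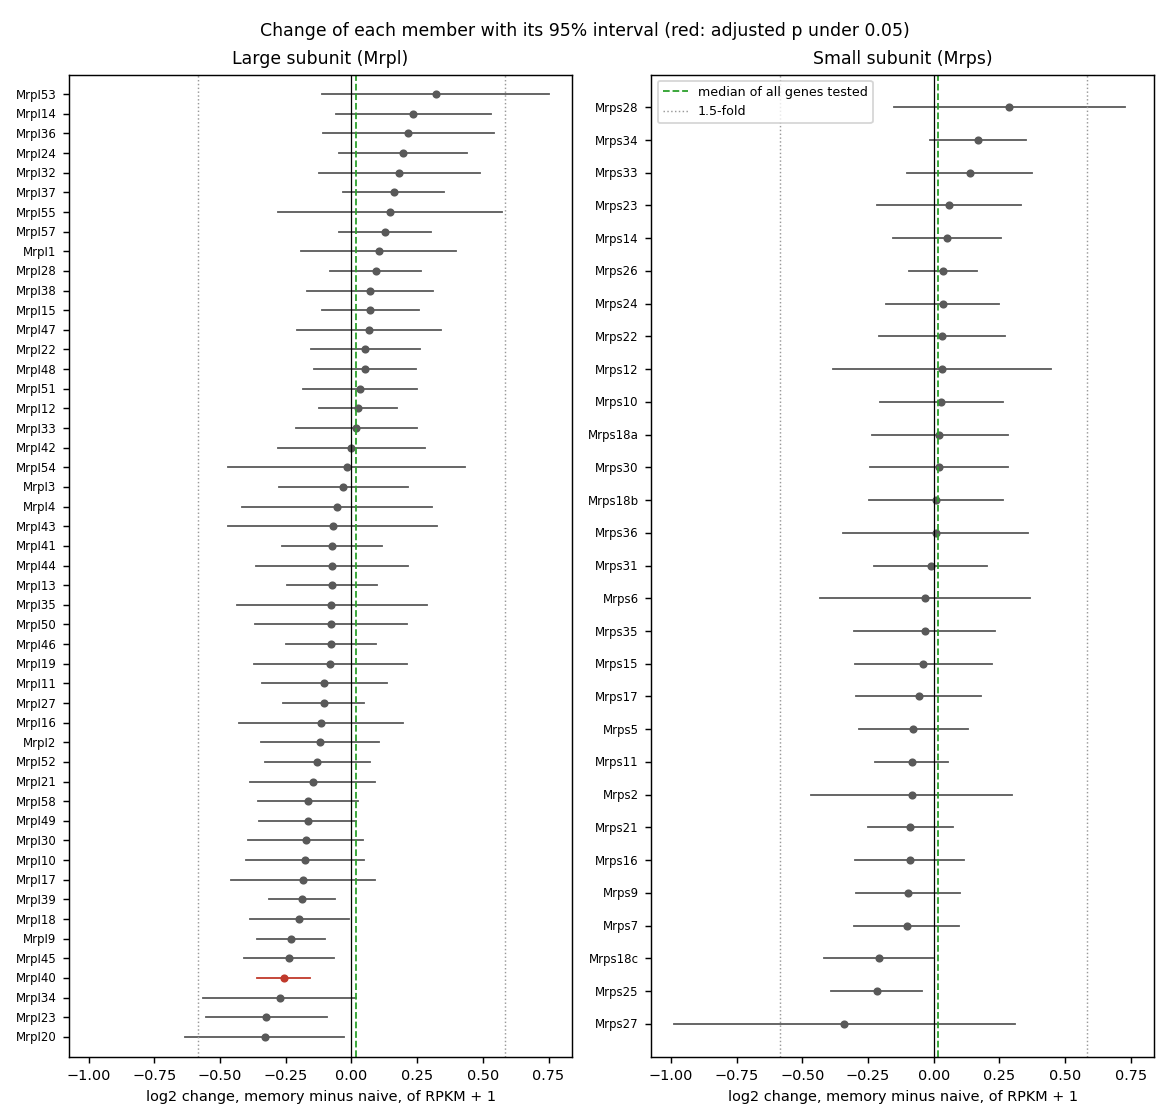
Log2 change (memory minus naive, RPKM + 1) of every member with its 95% limma interval, large subunit on the left and small subunit on the right. Red marks the single call, Mrpl40, the dashed line is the median of all genes tested (0.02), and dotted lines mark a 1.5-fold change. On this scale the widest interval, that of Mrps27, runs from -0.99 to 0.31.

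Position and start sites were not used in the choice by name. The 78 genes lie on 17 chromosomes, with 11 on chromosome 11 and 8 on chromosome 17. Of the 78, 23 members (29.5%) had a tested gene starting back to back with them, on the opposite strand with starts at most 1000 bases apart or overlapping by at most 300 bases, against 13.4% of 13792 tested genes. Several of these partners work in mitochondria or in translation. Mrpl43 faces Twnk, the mitochondrial DNA helicase, Mrps12 faces Sars2, the mitochondrial seryl-tRNA synthetase, and Mrpl49 faces Fau, which encodes a cytosolic ribosomal protein. Mrps11 and Mrpl46, a small and a large subunit gene, also lie head to head, on chromosome 7. By the outermost positions of the deposited annotation, their starts overlap by 413 bases, more than the limit above. Of these bases, 173 are exonic in both. By the RefSeq windows used below (Mrps11 chr7:78782881-78783180, Mrpl46 chr7:78783040-78783339), the starts do not overlap, so leaving this pair out of the count depends on the annotation.

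The changes of partners had no common sign. Over the 23 pairs, 12 had changes of the same sign, no partner was called, and the changes had a Pearson r of 0.05 across pairs, given as a description. Hira, a histone chaperone gene that starts 270 bases from Mrpl40, was at 5.13, 5.65 and 5.58 RPKM in memory and 5.86, 5.92 and 5.50 RPKM in naive libraries, with overlap (limma adjusted p = 0.674). Twnk was at 7.88, 7.71 and 7.25 RPKM in memory and 5.75, 6.05 and 6.36 RPKM in naive libraries (log2 change 0.29, SE 0.07, limma adjusted p = 0.0659, voom adjusted p = 0.0454). Its partner Mrpl43 was at 8.42, 9.39 and 8.31 RPKM in memory and 9.61, 11.7 and 6.87 RPKM in naive libraries, a change of -0.07.

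Promoter windows of 69 members (75 windows, 250 bases before to 50 bases after the start, RefSeq, GRCm38.p6) (Mrpl4, Mrpl13, Mrpl15, Mrpl19, Mrpl38, Mrpl54, Mrps28, Mrps34 and Mrps35 are not among them) were compared with all 32851 windows of that table and with the 10840 windows of tested genes. The windows of the members were rich in CpG. With a GC share over 50% and an observed to expected CpG ratio over 0.6, 78.7% of member windows passed, against 66.3% of the windows of tested genes and 33.3% of all windows. The motif CCGGAAG, bound by ETS factors such as GABPA, was present on either strand in 34.7% of member windows, 19.1% of the windows of tested genes and 8.86% of all windows. The motif AAGATGGCG, bound by YY1, was present in 10.7%, 3.31% and 1.4%, and the palindrome GCGCA followed by TGCGC, bound by NRF1, in 4.0%, 2.25% and 0.971%, in the same order of sets. Among members these are 26, 8 and 3 windows, too few for NRF1 to set its share apart, and 40 of the 75 windows hold none of the 3 motifs. Each was searched on both strands, and matches of the YY1 motif and of either other motif can share up to 3 bases at their ends.

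GABPA, YY1 and NRF1 are known regulators of nuclear genes for mitochondrial proteins. For contrast, the TATA box (TATAAA) was present in 6.67% of member windows and 6.76% of the windows of tested genes, and the CCAAT box (CCAAT) in 40.0% and 37.8%. Both shares were close to those of tested genes. A match is a description of the letters and not of binding. The 26 members with the ETS motif had a median level of 10.3 RPKM and a median log2 change of -0.01, and the 43 matched members without it 8.14 RPKM and -0.07.

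**Figure D5:**
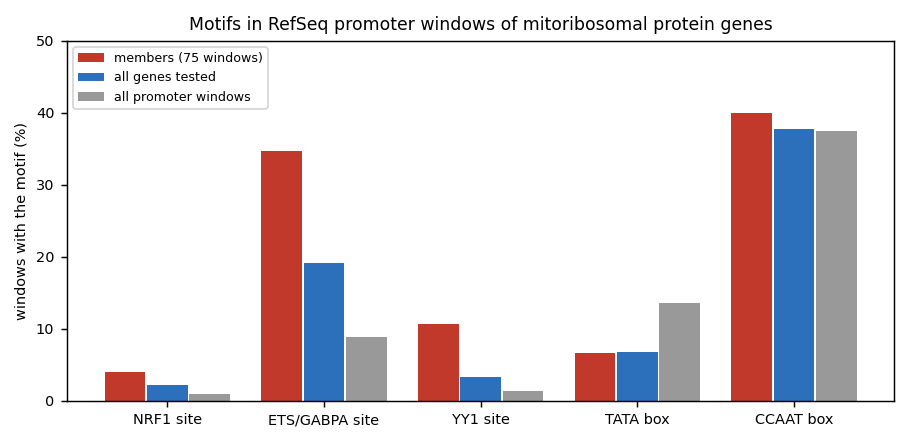
Share of RefSeq promoter windows (%) that hold each motif on either strand, for members (75 windows), windows of all tested genes (10840) and all windows (32851). The ETS/GABPA motif is in 34.7%, 19.1% and 8.86% of the windows of these sets and the YY1 motif in 10.7%, 3.31% and 1.4%. The NRF1 share of members, 4.0%, is only 3 windows.

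The windows below show the start sites of the called gene, of the most abundant member and of members with the NRF1 and YY1 motifs. Capitals mark the ETS, YY1 and NRF1 motifs named above, read 5′ to 3′ on the strand of the gene. The window of Mrpl40 (chr16:18876588-18876887, minus strand) holds none of the 3 motifs, that of Mrpl18 (chr17:12916042-12916341, minus strand) an ETS motif, that of Mrpl9 (chr3:94443086-94443385, plus strand) an NRF1 motif, and that of Mrps11 (chr7:78782881-78783180, plus strand), which it shares in part with Mrpl46, a YY1 motif on the opposite strand.
Mrpl40: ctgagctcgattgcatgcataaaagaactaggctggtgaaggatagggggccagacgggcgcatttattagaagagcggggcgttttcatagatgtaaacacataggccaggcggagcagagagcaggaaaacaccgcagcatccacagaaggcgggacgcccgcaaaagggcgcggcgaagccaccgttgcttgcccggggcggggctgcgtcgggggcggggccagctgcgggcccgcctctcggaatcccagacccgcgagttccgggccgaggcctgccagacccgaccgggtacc
Mrpl18: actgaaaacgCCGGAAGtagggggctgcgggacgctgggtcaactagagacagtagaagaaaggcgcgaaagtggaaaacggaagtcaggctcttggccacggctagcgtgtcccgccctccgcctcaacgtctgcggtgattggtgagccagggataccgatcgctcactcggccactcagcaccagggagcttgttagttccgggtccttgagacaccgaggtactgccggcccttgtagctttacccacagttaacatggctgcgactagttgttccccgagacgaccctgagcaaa
Mrpl9: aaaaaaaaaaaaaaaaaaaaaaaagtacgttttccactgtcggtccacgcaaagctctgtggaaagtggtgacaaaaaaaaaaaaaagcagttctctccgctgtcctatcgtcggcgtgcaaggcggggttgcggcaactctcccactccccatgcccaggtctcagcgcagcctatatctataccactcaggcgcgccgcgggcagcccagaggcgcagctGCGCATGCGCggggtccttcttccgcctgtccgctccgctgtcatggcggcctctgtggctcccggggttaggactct
Mrps11: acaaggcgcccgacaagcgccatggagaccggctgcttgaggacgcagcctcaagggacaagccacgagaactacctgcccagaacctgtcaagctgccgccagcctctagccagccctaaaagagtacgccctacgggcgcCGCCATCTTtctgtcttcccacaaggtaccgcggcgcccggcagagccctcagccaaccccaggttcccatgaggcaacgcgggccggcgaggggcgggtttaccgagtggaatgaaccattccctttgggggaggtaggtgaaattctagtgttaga

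Genes that work with the mitoribosome also showed no limma call. Of 5 subunits with other names, none was called (1 lower and none higher at an unadjusted p under 0.05, none by voom). Gadd45gip1, a large subunit protein, was at 18.9, 18.6 and 17.9 RPKM in memory and 20.6, 20.1 and 19.98 RPKM in naive libraries (limma adjusted p = 0.197), and Chchd1 of the small subunit averaged 29.3 and 26.25 RPKM in memory and naive libraries (limma adjusted p = 0.363). Of 25 assembly and rRNA modification genes, none was called (none at an unadjusted p under 0.05, none by voom), with a median change of -0.02. Rbfa, a maturation factor of the small subunit, averaged 46.9 and 50.5 RPKM, and Nsun4, an rRNA methyltransferase, 1.32 and 1.05 RPKM in memory and naive libraries.

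Of 17 mitochondrial translation factors, none was called (1 lower and none higher at an unadjusted p under 0.05, none by voom), with a median of 0.03. The elongation factor Gfm1 was at 11.2, 10.8 and 10.3 RPKM in memory and 12.3, 12.2 and 12.5 RPKM in naive libraries (log2 change -0.18, SE 0.05, limma adjusted p = 0.131). Its relative Gfm2, which takes the ribosome apart after termination, was at 3.86, 3.84 and 4.25 RPKM in memory and 3.49, 3.51 and 3.42 RPKM in naive libraries (log2 change 0.15, limma adjusted p = 0.341). The libraries did not overlap for either gene, and the signs were opposite. Of 20 genes for mitochondrial aminoacyl-tRNA synthetases and the amidotransferase, none was called (none at an unadjusted p under 0.05, none by voom). The 2 with the smallest p were Pars2 (log2 change -0.185) and Rars2 (0.188).

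Of 15 genes of mitochondrial DNA replication and transcription, 10 had a positive and 5 a negative change, with a median of 0.085. None was called by limma (2 higher and none lower at an unadjusted p under 0.05), and voom called Twnk. The other was Tfb2m, a transcription factor of mitochondrial DNA, at 6.55, 6.71 and 6.94 RPKM in memory and 4.90, 5.05 and 6.08 RPKM in naive libraries (log2 change 0.29, SE 0.09, limma adjusted p = 0.14). Of 9 tested regulators of nuclear genes for mitochondria, none was called (none at an unadjusted p under 0.05, none by voom). Myc, which drives ribosome production in growing lymphocytes, was at 12.5, 14.2 and 16.0 RPKM in memory and 18.4, 16.3 and 15.4 RPKM in naive libraries, with overlap (limma adjusted p = 0.322). Gabpb1, the partner of Gabpa, averaged 4.79 and 4.17 RPKM in memory and naive libraries (limma adjusted p = 0.372).

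The transcripts of mitochondrial DNA, which include the mitoribosome's own rRNAs and templates, varied more between libraries than the protein genes. Of 15, none was called by limma (1 lower and none higher at an unadjusted p under 0.05), and voom called mt-Nd5 lower. Their median change was -0.153, with 12 negative and 3 positive. The large rRNA mt-Rnr2 was at 17.3, 21.9 and 28.95 RPKM in memory and 30.2, 27.6 and 23.5 RPKM in naive libraries, and the small rRNA mt-Rnr1 at 21.0, 22.9 and 23.5 RPKM in memory and 28.6, 31.45 and 21.8 RPKM in naive libraries. Libraries were made with an mRNA kit, so rRNA levels are not a measure of ribosome number. The smallest p was that of mt-Nd3, a subunit of complex I, at 6.90, 6.64 and 6.80 RPKM in memory and 14.6, 17.7 and 8.02 RPKM in naive libraries (log2 change -0.83, SE 0.25, limma adjusted p = 0.1445). Its groups did not overlap, and naive library 3 was the lowest of the naive libraries. Without that library mt-Nd3 was called lower (log2 change -1.13, limma adjusted p = 0.00381). The next smallest p was that of mt-Atp8 (log2 change -0.42, limma adjusted p = 0.293), whose groups overlapped. Nuclear copies of mitochondrial DNA may share these reads, so levels within this group are uncertain.

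The cytosolic ribosome gives a comparison of the same kind. Of 81 tested cytosolic ribosomal protein genes, 2 were higher and 4 lower in memory by limma and 2 higher and 18 lower by voom. Over all genes tested, limma called 3.2% higher and 0.972% lower, and voom called 2.52% lower. The median change of the cytosolic genes was -0.07. Their summed level was 26560 to 28890 RPKM in memory and 28970 to 29520 RPKM in naive libraries, and the groups did not overlap. The summed level of the 78 members was 895 to 959 RPKM in memory and 918 to 1016 RPKM in naive libraries, with overlap. The difference between the families was not tested.

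The libraries carried the markers of their label. All 10 ILC1 markers were expressed, at means of 34.7 RPKM or more. Ncr1 was at 498, 498 and 520 RPKM in memory and 498, 484 and 481 RPKM in naive libraries. Cxcr6 was the only limma call (lower), and voom called Il2rb and Cxcr6 lower. Of the 10 changes, 7 were negative and 3 positive, with a median of -0.056. Other RNA moved with the groups (limma calls, where 3.2% of all genes tested were higher and 0.972% lower). Of 14 macrophage and monocyte markers, 12 were higher in memory and none lower, with a median log2 change of 1.174. They summed to 511 to 538 RPKM in memory and 52.9 to 58.9 RPKM in naive libraries, and none of the 14 was at 0. Most of this came from 1 marker, with a mean of 242.7 RPKM over the 6 libraries. The median marker level was 4.58 RPKM in memory and 1.475 RPKM in naive libraries. Of 7 tested dendritic cell and MHC class II markers, 5 were higher, with sums of 329 to 334 RPKM in memory and 47.8 to 52.4 RPKM in naive libraries. Of 20 replication and division genes, 9 were lower and none higher, with sums of 281 to 287 RPKM in memory and 364.6 to 380.5 RPKM in naive libraries. Of 7 tested T cell markers, 2 were lower. The T cell list summed to 345.7 to 372.4 RPKM in memory and 403.5 to 450.3 RPKM in naive libraries. Its highest marker averaged 182.8 RPKM over the 6 libraries. The median T cell marker level was 1.319 RPKM in memory and 1.501 RPKM in naive libraries. Of 6 tested hepatocyte markers, 1 (Alb) was higher. Csf3r, the 1 neutrophil marker tested, was higher, and neither of the B cell markers tested was called. The B cell list summed to 84.62 to 87.97 RPKM in memory and 78.36 to 90.2 RPKM in naive libraries. Nearly all of this was 1 gene, with a mean of 85.2 RPKM over the 6 libraries. The median level of the 4 B cell markers was 0.481 RPKM in memory and 0.525 RPKM in naive libraries. Pecam1, the 1 endothelial marker tested, was not called by limma but was higher by voom, and its groups did not overlap. In bulk samples, fewer cells of a type and less RNA per cell cannot be told apart, and the part of these differences in the values of Mrpl40 or any other member was not tested.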

How the data were processed

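Per the submitters' processing notes, the tools were STAR 2.5.3a, featureCounts, Subread 1.5.1 and edgeR 3.12.1 with the build mm10, with no role given. Per the labels' protocols, libraries came from TRIzol RNA with a stranded mRNA kit. The authors deposited RPKM values. Exon length and positions are per the file headers. Strand setting, annotation and molecular identifiers: not given in the sources used here. Shared exons matter for that reason: 31 of 78 members share exon bases with another gene, 17 of them over 10%.

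The step of each library turned 100% of values into whole reads (tolerance 0.001), with totals of 19849507 to 23795266 reads in memory and 18697093 to 21131528 in naive libraries. No pair of libraries agreed within counting noise (chi-square per gene at least 4.79). The test was limma-trend (limma 3.58.1, R 4.3.3) of log2(RPKM + 1), keeping genes that averaged 0.5 RPKM or more, with Benjamini-Hochberg adjustment over 13793 genes and a threshold of 0.05. It was tested on simulated data first. Of the recovered counts from 1 to 10, 69.8 to 72.3% were even, so a read may be less than a fragment. The read numbers given may then exceed the fragments behind them, and the lowest chi-square per gene is 2.4 when halved. Samples were grouped by the stage label. Alternatives were other pseudocounts, filters and scalings, voom on the recovered reads, the replicate number as a block, each library left out, and subunits by structure. Leaving out members with shared exons was chosen after seeing the data. Named were called members, the 3 highest, 3 lowest and 3 most changed in each direction per subunit, structural exceptions, and up to 2 genes per pathway list. Members without overlap, divergent partners, Mrpl12 and Ncr1 were named after their values were seen. The members and lists were chosen with earlier results of these data known. Figures used Python 3.11.15 and matplotlib 3.10.9.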

Additional observations from a re-analysis of the deposited data

How the results depend on the processing

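The count of members higher in memory was 0 under all 16 alternatives. The count lower in memory, 1 in the report, was 2 under quantile normalization, 2 under median ratio scaling, 3 with voom, and 0 to 1 with a library left out. The fit with a replicate block gave 0. Same-numbered libraries deviated from their group means with correlations of -0.084, -0.04 and -0.003, against -0.0784 to 0.109 for unlike numbers. With 3 libraries per group, this shows no strong shared deviation but cannot settle whether the samples were paired. The block also lowered the calls over all genes, in either direction, to 271 of 13793, against 575 without it. Voom gave 1141 such calls, quantile normalization 500 and median ratio scaling 574. With a library left out, that count ran from 270 to 388. The median change over all genes was -0.022 under quantile normalization and -0.008 under median ratio scaling, against 0.016 in the report. The median change of the small subunit, -0.01, was -0.056 under quantile normalization and -0.058 to 0.02 with a library left out. The cause was not tested. The large subunit median stayed between -0.12 and -0.04. The memory minus naive change in the log2 ratio of summed large to small subunit RPKM stayed between -0.07 and -0.02. Of 377 values of 27 named members under the alternatives, 369 kept their side of the threshold, 6 of Mrpl40 lost the call, and Mrps25 and Mrpl23 gained it with voom. Low reads limit Mrps28 (28 to 68) and Mrps36 (51 to 104) most.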
